A study of Mus musculus with 40 samples.

Results

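The step from the lymphoid-primed multipotent progenitor (LMPP) to the all-lymphoid progenitor (ALP) was followed in mouse bone marrow, in the control animals of a study of Mbd3. The data of this step are the 10 libraries of control LMPPs and control ALPs, chosen by population and genotype from 40 libraries in all. Both populations were sorted by flow cytometry from the femurs and tibiae of the same 5 mice, numbered mouse10357, mouse10358, mouse10372, mouse10380 and mouse10381, so each mouse gave 1 LMPP library and 1 ALP library. LMPPs were Lin-, Sca-1+, c-Kit+ and Flt3hi and carried neither IL-7Ra nor B220. ALPs had the same profile except that they were IL-7Ra+, and they were also gated as Ly6D-. The control mice had the genotype Mbd3_Flox/Flox, in which both Mbd3 alleles carry recombination sites but remain intact. They were of strain C57BL6/129Ola and were 46 to 51 days old. The sample labels give 100 cells per pool for both populations, whereas the series text gives 150 for them, and each library was made by Smart-seq2, which copies full-length mRNA from small pools and does not mark the strand. The Mbd3del mice used below for comparison (5 mice, Mbd3_Del/Del, the same strain and ages) were sorted by the same gates. How the deletion was brought about was not stated in the labels. The stem cell (HSC) and B cell-biased progenitor (BLP) libraries used below to place genes along the path came from the same 5 control mice.

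In the bone marrow, lymphoid development starts from stem cells and passes through progenitors that retain some myeloid potential before it is restricted to the lymphoid lineages. Signalling through the interleukin 7 receptor supports the survival and growth of early lymphoid cells, and its surface appearance is the classical mark of the common lymphoid stage. At about the same stage the enzymes that cut and join antigen receptor genes, Rag1 and Rag2, and terminal transferase (Dntt), which adds bases at the joints, become active, and transcription factors such as E2A, Ikaros, EBF1 and FOXO1 set up the B cell programme. Early lymphoid progenitors can also give rise to plasmacytoid dendritic cells.

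Expression is given as counts per 1000000 gene counts (CPM), and values per library follow the order of the mouse numbers above. A library held 6257696 to 8427880 gene counts in LMPPs and 3363182 to 9082610 in ALPs. The exact paired permutation test over 5 mice (two-sided, smallest possible p 0.0625) cannot pass 0.05 for any library measure, so the values are given: genes detected averaged 13527.8 ± 518 (SD, n = 5) in LMPPs and 14393.8 ± 948 in ALPs, higher in ALPs in 3 of 5 mice. The share of repRegion rows was 0.513% ± 0.234 and 1.09% ± 0.691, higher in ALPs in 4 of 5 mice. Their part in the results was not tested. The ALP library of mouse10372 had the fewest counts and the most detected genes (15745). Transcripts of sex-linked genes went against the labelled sex in 2 mice, mouse10372 and mouse10381, in the same way in both libraries of each mouse. Mbd3 itself lay between 18.5 and 54.2 CPM in control LMPPs and between 15.96 and 165 CPM in control ALPs, and at most 1.18 CPM in Mbd3del LMPPs and 3.24 CPM in Mbd3del ALPs.

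Few genes passed the threshold of the main test. With 5 mice mainly large changes can pass it, so the sizes of the called changes partly follow from the threshold. Of 10871 genes tested by the edgeR quasi-likelihood test with the mouse as a block, 27 were higher and 27 lower in ALPs at an adjusted p under 0.05, which is 0.497% of the genes tested (0.248% in each direction). The called genes moved in the same direction in all 5 mice, and 27 of the 27 higher and 26 of the 27 lower genes had no overlap between the 5 LMPP and the 5 ALP libraries. Over all tested genes 1.85% had every ALP library above every LMPP library and 1.66% had the reverse. Because the called genes were chosen by a test on these same libraries, their equal direction and lack of overlap follow in part from the call. They are a description and no separate evidence. A positive fold change was found for 53.0% of all tested genes, to be set beside the counts of the gene lists below. The log2 fold changes of the called genes ranged from 1.68 to 9.26 in size, with medians of 3.70 for the higher and -3.46 for the lower genes, against a median of 0.05 over all genes tested. Unadjusted p-values under 0.05 were found for 747 genes, where 544 would be expected with no change. The number of calls also depended on the method: DESeq2 called 504 genes, limma voom 107 and a newer edgeR estimator 134. The number of calls fell when any 1 mouse was left out, and it fell least for mouse10372. It was 1 without mouse10357 or without mouse10381, 5 without mouse10358, 22 without mouse10380 and 43 without mouse10372. It was 2 without mouse10372 and mouse10381 together. Without the mouse as a block the test called 102 genes, 51 in each direction, among them 53 of the 54; the exception was Itga4. In pools of sorted cells, a larger share of cells expressing a gene and more RNA of that gene per cell cannot be told apart.

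**Figure D1:**
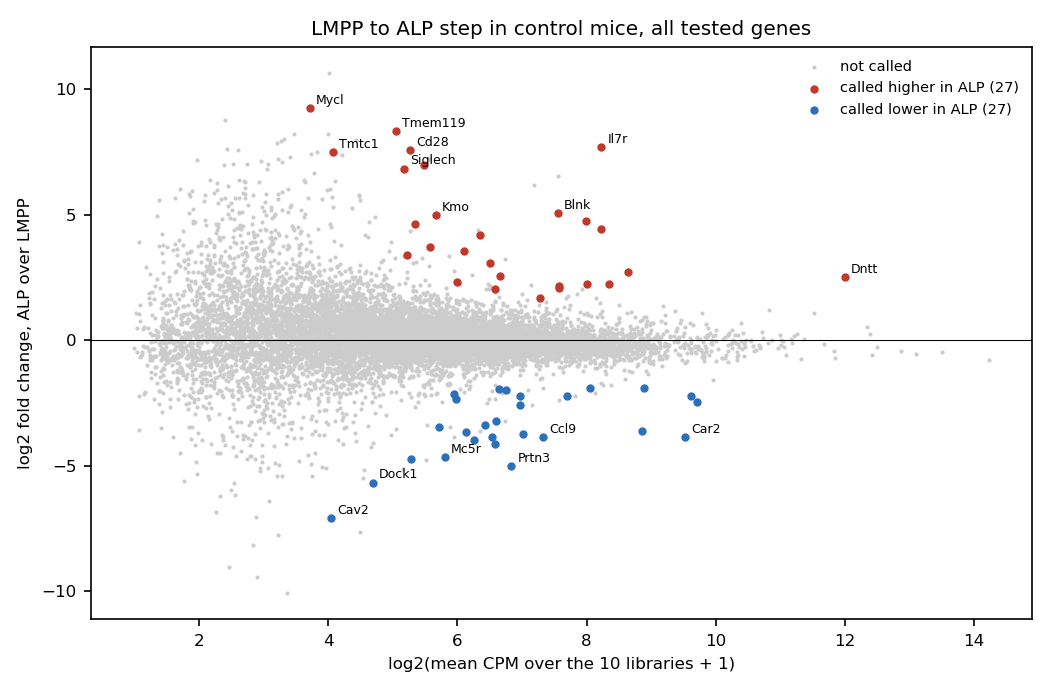
Each point is 1 of the 10871 genes tested; the horizontal axis is its mean level over the 10 libraries as log2(CPM + 1) and the vertical axis its log2 fold change in ALPs over LMPPs of control mice. The 27 genes called higher and the 27 called lower stand at sizes from 1.68 to 9.26, with Il7r and Dntt among the abundant genes called higher and Car2 and Prtn3 among those called lower.

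From each direction 2 named genes with large fold changes were taken, and equal direction in every mouse was a condition of naming them. The sequences before the RefSeq start of these genes are shown so that the start regions can be compared. They are the bases of the 250 before the RefSeq start that lie outside every exon of the gene in GENCODE M21, on the gene's own strand, 5′ to 3′, on GRCm38; capitals mark E-boxes (CANNTG), the letters bound by E proteins such as E2A. The stretch of Il7r is chr15:9529877-9530040 (minus strand), that of Mycl chr4:122995812-122995930 (plus strand), that of Cav2 chr6:17280935-17281184 (plus strand) and that of Prtn3 chr10:79879417-79879613 (plus strand, ending 53 bases before the RefSeq start). The annotated spans of Il7r, Mycl and Prtn3 in GENCODE M21 begin farther upstream, so their stretches lie inside the gene, while that of Cav2 lies before it.
Il7r: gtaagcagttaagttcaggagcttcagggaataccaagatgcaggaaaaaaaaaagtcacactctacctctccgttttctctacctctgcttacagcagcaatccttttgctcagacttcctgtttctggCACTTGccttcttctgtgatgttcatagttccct
Mycl: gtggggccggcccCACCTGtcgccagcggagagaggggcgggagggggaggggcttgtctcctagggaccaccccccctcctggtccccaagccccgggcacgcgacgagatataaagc
Cav2: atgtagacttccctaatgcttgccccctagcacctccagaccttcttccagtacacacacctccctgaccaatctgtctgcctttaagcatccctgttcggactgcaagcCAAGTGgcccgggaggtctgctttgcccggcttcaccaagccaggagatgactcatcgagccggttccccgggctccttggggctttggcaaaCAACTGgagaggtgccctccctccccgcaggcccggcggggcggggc
Prtn3: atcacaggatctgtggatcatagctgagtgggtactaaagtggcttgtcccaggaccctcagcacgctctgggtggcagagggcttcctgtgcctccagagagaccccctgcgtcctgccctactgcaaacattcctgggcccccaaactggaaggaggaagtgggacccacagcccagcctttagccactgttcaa

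Il7r and Mycl hold 1 E-box each in these stretches, Cav2 holds 2 and Prtn3 none. The stretches of Tmtc1 and Dock1, which also had large fold changes but are not shown, hold 3 and 0. RefSeq promoter windows were found for 21 of the 27 higher and 20 of the 27 lower genes. Over the full 250 bases, an E-box was present in 17 of the 21 higher genes (81.0%), in 10 of the 20 lower genes (50.0%) and in 55.7% of 8428 tested genes with a window. The letters GAGGAA, bound by PU.1 and other ETS factors, were present in 6 of 21 (28.6%), 10 of 20 (50.0%) and 22.5% of all. The RUNX letters TGTGGT were present in 6 of 21 (28.6%), 3 of 20 and 10.7% of all, and the EBF1 letters CCCNNGGG in 5 of 21 (23.8%), 3 of 20 and 14.998% of all. The GATA letters AGATAA were found in 2 of 21 and 1 of 20 (5.66% of all) and the TATA letters TATAAA in 2 of 21 and 4 of 20 (5.80% of all). All motifs were searched on both strands; none of them contains another, though neighbouring matches can share letters. The mean GC content was 56.8% in the higher, 56.5% in the lower and 60.1% in all windows. These matches are a description of the windows, without a test.

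The transcripts of the gating markers were read first, because they check the labels. Il7r, the alpha chain of the interleukin 7 receptor (chromosome 15 from 9505788 to 9530176, minus strand), had 4.45, 6.60, 1.39, 1.28 and 1.78 CPM in the LMPP libraries and 677, 466, 781, 334 and 713 CPM in the ALP libraries. The groups lay far apart, with a log2 fold change of 7.71 ± 0.53 (SE) and an edgeR adjusted p = 0.0015. It was the gene with the lowest adjusted p, and the 1 gene of the 54 that passed under all 15 alternative settings. Since the gate separated the populations by this receptor on the surface, its transcript is a check of the sort.

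Ly6d, whose protein was used to exclude B cell-biased cells from the ALP gate (chromosome 15 from 74762056 to 74763620, minus strand), had 6.31, 2.62, 4.94, 4.63 and 19.2 CPM in LMPPs and 95.4, 118, 77.6, 47.01 and 89.3 CPM in ALPs. Its transcript was higher in every ALP library despite the Ly6D- gate (log2 fold change of 3.70 ± 0.56 (SE) and an edgeR adjusted p = 0.0332). The level stayed far below that of BLPs, which were sorted for the protein and had 7785 ± 2867 CPM (SD, n = 5). Kit, the stem cell factor receptor by which both populations were gated (chromosome 5 from 75574916 to 75656722, plus strand), fell from 466, 370.3, 298, 182 and 338 CPM to 98.3, 115, 101, 16.2 and 87.9 CPM. The lowest LMPP library lay above the highest ALP library (log2 fold change of -2.24 ± 0.31 (SE) and an edgeR adjusted p = 0.0226), and mouse10380 had the lowest level in both populations. Ly6a, which encodes Sca-1, had 146, 136, 387, 141 and 291 CPM in LMPPs and 54.6, 39.3, 178, 0.661 and 40.7 CPM in ALPs, lower in the ALP library of every mouse, but the groups overlapped and it did not pass (log2 fold change -2.60, edgeR adjusted p = 0.365). Flt3, the other receptor shared by both gates, ranged from 305 to 922 CPM in LMPPs and from 450.3 to 1552 CPM in ALPs (log2 fold change 0.69, edgeR adjusted p = 0.796), and Ptprc, which encodes CD45, did not pass either (log2 fold change 0.16, edgeR adjusted p = 0.916).

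Of the antigen receptor recombination genes, Dntt and Rag2 were called higher. Dntt, terminal transferase, had 1328, 647, 975, 1209.9 and 1727 CPM in LMPPs and 6826, 8079, 8225, 3832 and 8127 CPM in ALPs. All ALP libraries lay above all LMPP libraries, with the lowest ALP value in mouse10380 (log2 fold change of 2.52 ± 0.32 (SE) and an edgeR adjusted p = 0.0158). Rag2, a subunit of the recombinase, had 59.5, 93.2, 54.6, 85.3 and 41.8 CPM in LMPPs and 276, 269, 184, 415 and 413 CPM in ALPs (log2 fold change of 2.14 ± 0.36 (SE) and an edgeR adjusted p = 0.0412). Rag1, its partner, was at 1.86, 0, 0, 2.24 and 0.712 CPM in LMPPs and 44.2, 48.4, 76.4, 25.1 and 13.3 CPM in ALPs. The Rag1 groups did not overlap, but with a log2 fold change of 5.79 ± 1.37 (SE) and an edgeR adjusted p = 0.185 it did not pass. The span of Rag1 overlaps that of B230118H07Rik on the same strand (1292 and 6205 counts over the 10 libraries). Overlap of their exons was not examined, so the counts of Rag1 are uncertain. Xrcc6, which encodes the DNA end-joining protein Ku70, also had no overlap (235 to 365 CPM in LMPPs, 525 to 1001 CPM in ALPs) and did not pass (edgeR adjusted p = 0.0747). Of the 12 genes listed for V(D)J recombination 11 were tested, 2 were called higher and 0 lower, 7 had a positive fold change, and the median was 0.24. The end-joining genes Xrcc4, Xrcc5, Prkdc, Dclre1c and Nhej1 had adjusted p-values of 0.798 or above by edgeR.

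Along the interleukin 7 pathway the receptor's alpha chain and the survival gene Bcl2 were called. Bcl2, which encodes an inhibitor of cell death, had 52.3, 50.6, 52.3, 157 and 44.1 CPM in LMPPs and 160.1, 243, 623, 295 and 227 CPM in ALPs (log2 fold change of 2.07 ± 0.34 (SE) and an edgeR adjusted p = 0.0385). The highest LMPP library, that of mouse10380, lay just under the lowest ALP library, that of mouse10357. Il2rg, the common gamma chain that pairs with the alpha chain, went the other way without passing: it ranged from 280.5 to 779.5 CPM in LMPPs and from 116 to 245 CPM in ALPs, with no overlap (log2 fold change -1.23, edgeR adjusted p = 0.568). The kinases Jak1 and Jak3 and the factors Stat5a and Stat5b had log2 fold changes of -0.79, -0.84, 0.13 and 0.35, none of them called. Socs2, a feedback inhibitor of cytokine signalling, had 0 to 13.95 CPM in LMPPs and 19.7 to 88.5 CPM in ALPs (edgeR adjusted p = 0.253). Of 17 genes listed for interleukin 7 receptor signalling 16 were tested, 2 were called higher and 0 lower, and the median log2 fold change was 0.04. Il7r, 1 of the 2, encodes the receptor by which the gate separated the populations, so its call is a check of the sort. Among the 8 tested members of the Bcl2 family, Bcl2 was the 1 called, and Mcl1, another survival gene, had a log2 fold change of -0.05 (edgeR adjusted p = 0.976).

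Of the genes of early B cell specification, Blnk and Ly6d were called. Blnk, the adaptor that links the B cell receptor and its precursor to downstream enzymes (chromosome 19 from 40928927 to 40994535, minus strand), had 13.05, 0.249, 5.56, 23.97 and 38.7 CPM in LMPPs and 255, 307, 330, 442 and 451 CPM in ALPs. The LMPP libraries were spread more widely than the ALP libraries relative to their level, and the groups did not overlap (log2 fold change of 5.05 ± 0.79 (SE) and an edgeR adjusted p = 0.0359). Ebf1, the transcription factor that commits progenitors to the B lineage, was at 0, 0, 0.154, 0.160 and 0.237 CPM in LMPPs and 39.6, 46.5, 15.5, 12.1 and 18.1 CPM in ALPs. Every ALP library was above every LMPP library, with a log2 fold change of 7.51 ± 1.37 (SE) and an edgeR adjusted p = 0.0677, which did not pass. Of 27 genes listed for B cell specification 14 were tested, 12 were positive and 2 negative, and the median log2 fold change was 1.89. The later B cell genes were low: Pax5 was listed at 0 in all libraries but 1 (ALP of mouse10372, 2.68 CPM), and Vpreb1 and Igll1, of the surrogate light chain, did not exceed 2.68 and 0.892 CPM. Of 9 genes listed for mature B and plasma cells, Ms4a1, Fcer2a and Cd40 had 0 counts in all 10 libraries, while the summed level of the list ranged from 12.5 to 65.1 CPM in LMPPs and from 118 to 221 CPM in ALPs, carried by Ighd and Sdc1.

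Among T cell genes Cd28, a costimulatory receptor (chromosome 1 from 60716800 to 60773359, plus strand), was called. It had 0.143, 0.125, 0, 7.03 and 0.237 CPM in LMPPs and 28.3, 106, 36.6, 76.96 and 120.1 CPM in ALPs, and mouse10380 gave the 1 LMPP library above 1 CPM (log2 fold change of 7.56 ± 1.12 (SE) and an edgeR adjusted p = 0.0316). Cd247 and Zap70, a chain and a kinase of T cell receptor signalling, and Notch1, the receptor that starts T cell commitment, had no overlap between the groups and did not pass (edgeR adjusted p = 0.234, 0.143 and 0.417). Tcf7, the factor induced by Notch in the thymus, was at 0, 0, 0, 0 and 0.119 CPM in LMPPs and 48.9, 40.6, 16.4, 0 and 9.15 CPM in ALPs and did not pass the filter on low counts, with 0 in the ALP library of mouse10380. Of 23 T lineage and Notch genes 11 were tested, 10 were positive, and the median log2 fold change was 1.68. Bcl11b, Cd3e, Cd3g, Cd2, Ptcra and Il2ra, which mark cells in the thymus, had 0 counts in all 10 libraries. The markers of mature T cells summed to 5.58 to 15.3 CPM in LMPPs and 15.99 to 50.2 CPM in ALPs.

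Of 32 listed lymphoid transcription factors 23 were tested and 0 were called by edgeR, while 21 had a positive fold change and the median was 0.72. An unadjusted p under 0.05 was found for 14 of them, and DESeq2 called 9 and limma voom 1. Of all 10871 genes tested, 53.0% had a positive fold change and 747 an unadjusted p under 0.05. DESeq2 called 504 of all genes and limma voom 107. Ikzf1, which encodes Ikaros, ranged from 217 to 352 CPM in LMPPs and from 502 to 712 CPM in ALPs, without overlap (log2 fold change 0.91, edgeR adjusted p = 0.248). Foxo1, a regulator of Il7r and of the Rag genes, ranged from 1.76 to 16.1 CPM and from 18.5 to 70.5 CPM (log2 fold change 2.29, edgeR adjusted p = 0.521). In all, 7 of the 23 had every ALP library above every LMPP library (Ikzf1, Ebf1, Foxo1, Notch1, Sox4, Zeb2 and Id2) and 0 had the reverse. The shares over all tested genes were 1.85% and 1.66%. Tcf3, which encodes E2A, and Runx1 had log2 fold changes of 0.64 and 0.06, with overlapping libraries. Unlike these, Irf8, a factor of the dendritic, monocyte and B lineages (chromosome 8 from 120736358 to 120756694, plus strand), listed with the myeloid genes, was called: it had 16.3, 16.2, 13.7, 108 and 21.7 CPM in LMPPs and 399, 761, 720.4, 478 and 433 CPM in ALPs (log2 fold change of 4.44 ± 0.51 (SE) and an edgeR adjusted p = 0.0123).

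Siglech, a lectin receptor of plasmacytoid dendritic cells (chromosome 7 from 55768178 to 55778925, plus strand), was among the genes with the largest fold changes. It had 0.430, 0.125, 0.309, 1.92 and 0.831 CPM in LMPPs and 54.1, 54.2, 45.8, 80.9 and 112 CPM in ALPs (log2 fold change of 6.83 ± 0.66 (SE) and an edgeR adjusted p = 0.00913). All LMPP libraries lay near the level of a few counts and all ALP libraries well above it. The 16 dendritic cell markers summed to 288 to 534 CPM in LMPPs and 556 to 927 CPM in ALPs, 10 were tested, 9 were positive and 1 negative with a median log2 fold change of 0.84, and Siglech was the 1 called. Of the antigen-presentation genes that define mature dendritic cells, Cd74 ranged from 9.59 to 111 CPM in LMPPs and from 12.97 to 124 CPM in ALPs (log2 fold change 0.08), and H2-Ab1 had a log2 fold change of -0.67 (edgeR adjusted p = 0.836); Cd209a had 0 counts in all 10 libraries. Klrd1, a lectin receptor of NK cells also listed there, had no overlap (0 to 7.19 CPM against 14.3 to 43.9 CPM, edgeR adjusted p = 0.205). The part of dendritic cells in the calls of Siglech and Irf8 was not tested.

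The other named genes that rose do not belong to one known group. Mycl, which encodes L-Myc, a factor of the Myc family (chromosome 4 from 122995652 to 123002485, plus strand), had 0.143, 0, 0, 0 and 0 CPM in LMPPs and 40.8, 11.9, 28.5, 22.1 and 17.96 CPM in ALPs. It was read by 1 count over the 5 LMPP libraries and 810 counts over the ALP libraries, a ratio of 831 after division by the gene counts of each group (95% counting interval 149 to 32860.3), and had a log2 fold change of 9.26 ± 1.31 (SE) and an edgeR adjusted p = 0.0226. Tmem119, a transmembrane protein best known from microglia, had 0, 0, 0.309, 0.479 and 0.119 CPM in LMPPs and 18.96, 127, 56.8, 39.1 and 77.3 CPM in ALPs. This was 6 against 2304 counts, a ratio of 394 (181 to 1075), with an edgeR adjusted p = 0.0148. Tmtc1, which transfers mannose to proteins in the endoplasmic reticulum, had 0.143, 0, 0.154, 0 and 0.593 CPM in LMPPs and 61.6, 29.1, 42.8, 1.65 and 22.2 CPM in ALPs. Its ALP libraries were spread widely, from mouse10380 at the bottom to mouse10357 at the top, and 7 against 976 counts gave a ratio of 143 (69.2 to 357; edgeR adjusted p = 0.0382).

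Cox6a2, the muscle-type subunit of cytochrome c oxidase (chromosome 7 from 128205435 to 128206387, minus strand), had 10.04, 12.8, 41.7, 15.2 and 17.3 CPM in LMPPs and 578, 345, 426, 652 and 423 CPM in ALPs. Every ALP library was several times above the highest LMPP library, that of mouse10372 (log2 fold change of 4.74 ± 0.50 (SE) and an edgeR adjusted p = 0.0107). Tnni1, the slow-muscle form of troponin I, had 2.58, 0, 0, 4.79 and 0 CPM in LMPPs and 43.9, 37.2, 28.5, 204 and 117 CPM in ALPs (edgeR adjusted p = 0.042). Kmo, an enzyme of tryptophan breakdown, ranged from 0.463 to 12.3 CPM in LMPPs and from 46.4 to 155 CPM in ALPs (edgeR adjusted p = 0.0372), and Drc7, a subunit of the dynein regulatory complex of cilia, from 0.374 to 6.33 CPM and from 45.1 to 111 CPM (edgeR adjusted p = 0.0359). For Cox6a2, Tnni1, Kmo and Drc7 the groups did not overlap. Kmo overlaps Fh1 on the opposite strand (14109 counts against 3709 for Kmo over the 10 libraries); overlap of their exons was not examined, so the counts of Kmo are uncertain.

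Itga4, the alpha-4 integrin of homing and adhesion, was the 1 called of 12 homing and chemokine receptor genes. It had 54.9, 65.1, 132, 49.1 and 59.3 CPM in LMPPs and 233, 214, 395, 158 and 187 CPM in ALPs, with the highest value of both groups in mouse10372 and no overlap (log2 fold change of 1.68 ± 0.27 (SE) and an edgeR adjusted p = 0.0364). Without the mouse as a block Itga4 did not pass (log2 fold change 1.57, edgeR adjusted p = 0.068). The median of that list was 1.07 and 10 of 12 were positive. Selplg, the P-selectin ligand, which guides leukocytes into tissues, had a log2 fold change of 0.99 (edgeR adjusted p = 0.187). Ccr9, the receptor for a thymus chemokine, ranged from 0.220 to 104 CPM among ALP libraries and overlapped the LMPPs. Tfrc, the transferrin receptor, listed among erythroid genes but used by dividing cells in general, rose from 42.7, 141, 131, 100 and 176 CPM to 468, 633, 458, 549 and 555 CPM (log2 fold change of 2.23 ± 0.37 (SE) and an edgeR adjusted p = 0.0406). The remaining genes called higher, chosen for mention after their values were seen, were Tmem108, Lgmn, Bfsp2, Cmah, Cnn3, Arpp21, Gria3, Ctr9 and Camk1d, with log2 fold changes from 2.03 (Camk1d) to 4.21 (Tmem108).

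**Figure D2:**
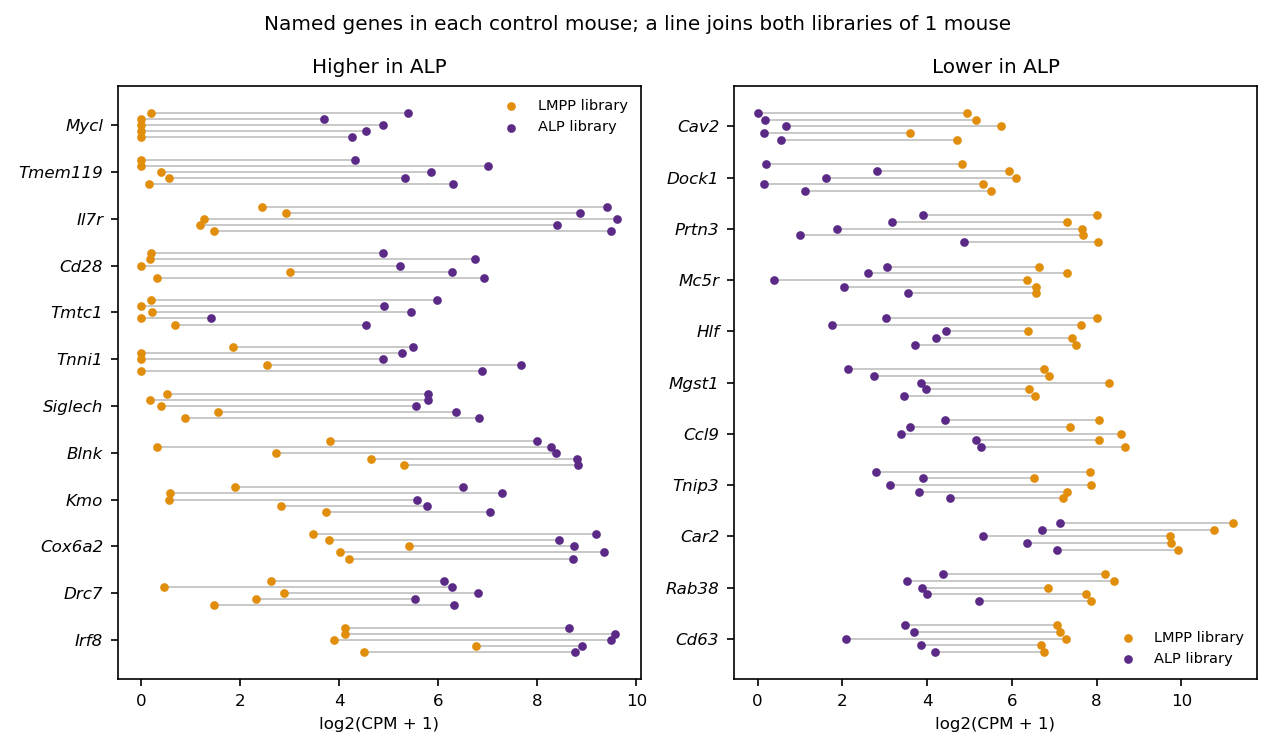
Each point is 1 library at log2(CPM + 1), and each line joins the LMPP and ALP libraries of 1 control mouse, in the order mouse10357, mouse10358, mouse10372, mouse10380 and mouse10381 from top to bottom within a gene. The 12 genes with the largest called rise (left) and 11 of the 12 with the largest called fall (right) are shown; equal direction in all 5 mice and no overlap were conditions of their choice. Prtn3 levels lie closer together in LMPPs than in ALPs, and the LMPP library of mouse10380 stands above the others for Irf8.

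Among the stem cell regulators, Hlf was called lower. Hlf, a transcription factor active in stem cells (chromosome 11 from 90336536 to 90390895, minus strand), had 258, 198, 82.3, 171 and 183 CPM in LMPPs and 7.19, 2.36, 20.8, 17.6 and 12.05 CPM in ALPs. The lowest LMPP library, that of mouse10372, was still above the highest ALP library, which came from the same mouse (log2 fold change of -4.15 ± 0.62 (SE) and an edgeR adjusted p = 0.0332). Of 30 stem cell genes 24 were tested, 2 were called lower and 0 higher, 19 were negative, and the median log2 fold change was -0.83. Hoxa9, a homeobox factor of progenitors, and Angpt1, a ligand of the Tie2 receptor, also had no overlap, without passing (log2 fold changes -0.97 and -2.22, edgeR adjusted p = 0.353 and 0.121). Lmo2, a bridging factor of haematopoietic transcription complexes, had 599, 518, 455, 457 and 397 CPM in LMPPs and 155, 92.2, 457, 98.2 and 102 CPM in ALPs (edgeR adjusted p = 0.0776), and its ALP library of mouse10372 stood with the LMPPs. Cd34, Meis1 and Mycn had log2 fold changes of -0.47, -0.76 and -0.12 and were not called.

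Prtn3, which encodes proteinase 3 of neutrophil granules (chromosome 10 from 79874476 to 79883174, plus strand), was the 1 gene of the myeloid priming list called lower. It had 258, 157, 201, 202 and 259 CPM in LMPPs and 14.1, 7.99, 2.68, 0.991 and 28.03 CPM in ALPs (log2 fold change of -5.01 ± 0.69 (SE) and an edgeR adjusted p = 0.0226). The LMPP libraries lay closer together than the ALP libraries relative to their level, and the groups did not overlap. Mpo, another granule enzyme, was not called: it ranged from 161 to 663 CPM in LMPPs and from 187 to 884 CPM in ALPs (log2 fold change -0.14, edgeR adjusted p = 0.952). Lyz2 (lysozyme) had no overlap, 459.6 to 685 CPM against 88.9 to 344 CPM, and did not pass (edgeR adjusted p = 0.248), and Elane, the elastase gene, had 0 counts in all 10 libraries. Of 24 myeloid priming genes 15 were tested, 1 was called higher (Irf8) and 1 lower (Prtn3), and the median was -0.35. Markers of mature neutrophils and monocytes summed to 7.10 to 286 CPM in LMPPs and 2.45 to 22.3 CPM in ALPs. The highest sum was that of the LMPP library of mouse10381, which had 189.6 CPM of S100a8, while Lcn2 and Cd177 had 0 counts in all 10. Prtn3 had 258 CPM in the LMPP library of mouse10357 and 259 CPM in that of mouse10381; the part of mature myeloid cells in its call was not tested.

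Car2, carbonic anhydrase 2 (chromosome 3 from 14886273 to 14900770, plus strand), was the 1 gene of the erythroid and megakaryocyte list called lower. It fell from 2391, 1754, 850.1, 864 and 970.5 CPM to 139, 103, 38.95, 81.1 and 132 CPM (log2 fold change of -3.85 ± 0.37 (SE) and an edgeR adjusted p = 0.00913). Nfe2, a factor of platelet and red cell formation, had no overlap (106 to 358 CPM against 58.4 to 99.3 CPM) and did not pass (edgeR adjusted p = 0.0927). Of 21 genes on that list 7 were tested, with 1 called higher (Tfrc) and 1 lower and a median of -1.54, and Gata1, Car1 and Gp1bb, which mark the committed lineages, had 0 counts in all 10 libraries. Red cell markers summed to at most 16.6 CPM in LMPPs and 8.26 CPM in ALPs.

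Ccl9, a chemokine of the macrophage inflammatory protein family (chromosome 11 from 83572919 to 83578636, minus strand), had 264, 164, 383, 265 and 406 CPM in LMPPs and 20.3, 11.1, 9.51, 34.5 and 37.8 CPM in ALPs (log2 fold change of -3.87 ± 0.46 (SE) and an edgeR adjusted p = 0.013). Cd63, a tetraspanin of late endosomes and granules, had 134, 139.5, 154, 102 and 107 CPM and 10.1, 11.9, 3.27, 13.4 and 17.1 CPM (log2 fold change of -3.65 ± 0.54 (SE) and an edgeR adjusted p = 0.0319), and Rab38, a small GTPase of lysosome-related organelles, had 295, 337, 115, 213 and 231 CPM and 19.7, 10.5, 13.7, 14.97 and 36.1 CPM (log2 fold change of -3.75 ± 0.40 (SE) and an edgeR adjusted p = 0.0107). For these 3 genes every LMPP library was above every ALP library. Mgst1, a membrane-bound glutathione transferase, ranged from 84.1 to 311 CPM in LMPPs, highest in mouse10372, and from 3.36 to 14.6 CPM in ALPs (log2 fold change of -3.99 ± 0.50 (SE) and an edgeR adjusted p = 0.0158). Tnip3, an inhibitor of NF-kB signalling, ranged from 90.3 to 234 CPM and from 5.96 to 22.4 CPM (edgeR adjusted p = 0.0226), and Mc5r, a melanocortin receptor, from 80.7 to 156 CPM and from 0.297 to 10.8 CPM (edgeR adjusted p = 0.0332).

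The largest falls were those of Cav2 and Dock1. Cav2, which encodes caveolin 2 of plasma membrane invaginations (chromosome 6 from 17281185 to 17289115, plus strand), had 29.8, 34.9, 52.8, 11.03 and 25.2 CPM in LMPPs and 0, 0.131, 0.595, 0.110 and 0.463 CPM in ALPs. All ALP libraries were at the level of a few counts: 1111 counts in LMPPs stood against 8 in ALPs, a ratio of 135 (95% counting interval 68.5 to 314; log2 fold change of -7.08 ± 1.05 (SE) and an edgeR adjusted p = 0.0316). Dock1, an activator of the GTPase Rac (chromosome 7 from 134670654 to 135173639, plus strand), had 27.2, 60.2, 67.6, 38.8 and 44.1 CPM and 0.153, 6.02, 2.08, 0.110 and 1.16 CPM (log2 fold change of -5.67 ± 0.89 (SE) and an edgeR adjusted p = 0.0359). The remaining genes called lower, chosen for mention after their values were seen, were Ifitm1, Ifitm3, Il15, Ube2l6, Ccl3, Ebi3, Wfdc17, Ctla2a, Anxa2, Glul, Adgrl4, Stxbp4 and the gene models Gm19590 and B230118H07Rik, with log2 fold changes from -3.63 (Ifitm1) to -1.91 (Ifitm3). Anxa2 was the 1 called gene whose groups overlapped, through the LMPP library of mouse10372 (66.7 CPM) and the ALP library of mouse10381 (83.1 CPM). Counts of Ifitm1, Ifitm3, Ctla2a, Ly6a and Ly6d are uncertain, since similar copies in their families can share or lose reads. Of all 54 called genes, 23 overlap another annotated gene, among them Tmtc1, Cox6a2, Rag2, Bcl2, Itga4, Prtn3, Dock1 and Cav2. This is overlap of the annotated spans, and overlap of exons was not examined. Many of the partners had few counts (1 for that of Cav2 and 188 for that of Cox6a2, against 1119 and 18104 for the genes). Others had more, all on the opposite strand: Rps4l 1353 against 983 for Tmtc1, Plppr3 1176 against 8221 for Prtn3, and B230118H07Rik 6205 against 14217 for Rag2. The counts of Tmtc1, Prtn3 and Rag2 are therefore uncertain.

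Cell cycle genes were compared next. In the S phase list (20 tested) and the mitosis list (20 tested) edgeR called 0 genes, with medians of -0.20 and -0.03. An unadjusted p under 0.05 was found for 2 and 1 of them, DESeq2 called 1 and 0, and limma voom 0 in both. Mki67, a marker of dividing cells, ranged from 92.9 to 272 CPM in LMPPs and from 85.1 to 228 CPM in ALPs (log2 fold change -0.05 ± 0.28 SE), and Mcm6, of the replicative helicase, had a log2 fold change of 0.15 ± 0.29 (SE). Of the 10 tested G1 cyclins and their kinases and inhibitors, 0 were called by edgeR (3 with an unadjusted p under 0.05, 2 called by DESeq2, 0 by limma voom). The median of this G1 list was 0.39, with 8 members positive and 2 negative. Ccnd2 (cyclin D2) and the inhibitor gene Cdkn1a both had every ALP library above every LMPP library, with log2 fold changes of 0.94 and 2.17 (edgeR adjusted p = 0.377 and 0.195). Of 12 tested immediate early and heat shock genes, which respond to handling, edgeR called 0 (2 with an unadjusted p under 0.05, 2 called by DESeq2, 0 by limma voom), and their median was 0.08.

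**Figure D3:**
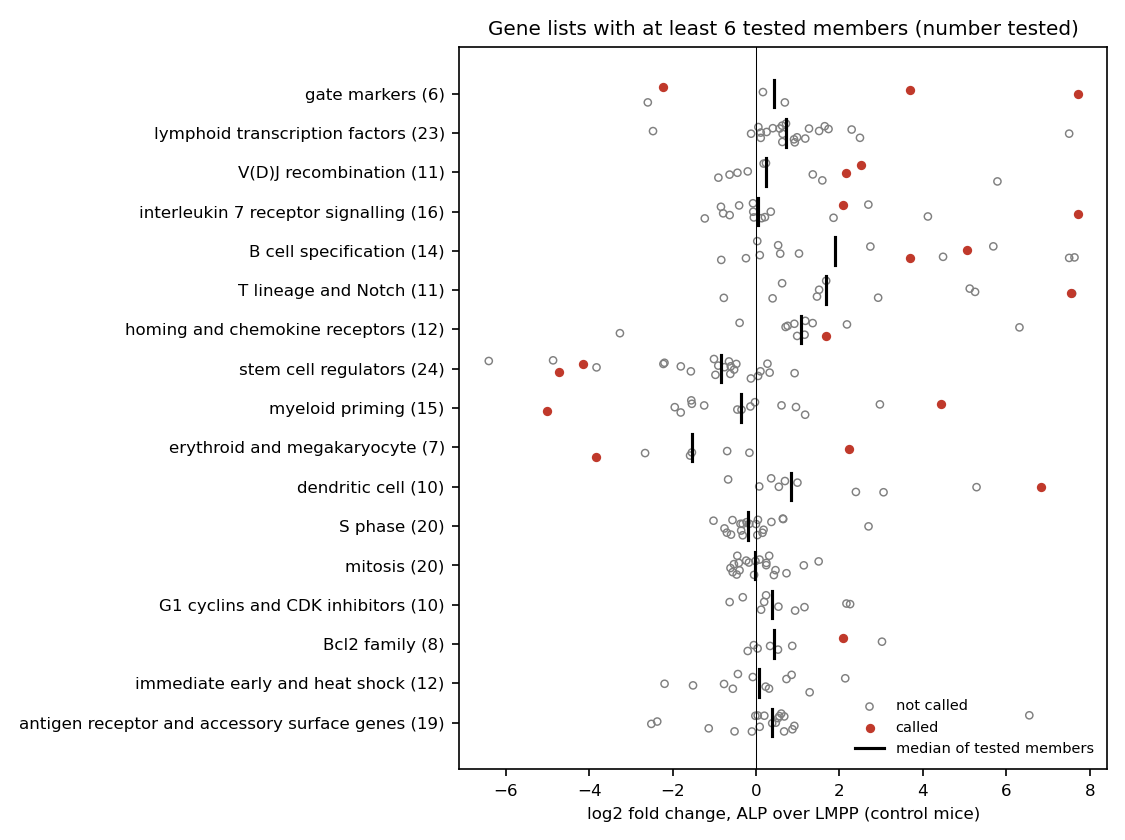
Each point is a tested gene of a list, placed by its log2 fold change in ALPs over LMPPs of control mice; filled points passed the edgeR threshold, bars mark the median of the tested members, and the number tested stands in brackets. Lists with at least 6 tested members are shown. Their medians run from -1.54 (erythroid and megakaryocyte) to 1.89 (B cell specification), against 0.05 over all genes. The medians of the S phase, mitosis and G1 lists are -0.20, -0.03 and 0.39.

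The levels of the called genes were placed along the path from HSC to BLP, in the same 5 control mice. Of the 27 genes called higher in ALPs, 20 had their lowest mean in HSCs and 7 in LMPPs, and 18 had their highest mean in BLPs and 9 in ALPs. Of the 27 called lower, 17 had their highest mean in HSCs and 10 in LMPPs, and the lowest mean was in BLPs for 19, in ALPs for 5 and in HSCs for 3. Mean levels changed in 1 direction over all 4 populations for 15 of the higher and 13 of the lower genes. The genes were chosen by their change from LMPPs to ALPs, so the order of these populations was fixed by the choice. Shares over all tested genes are not given for these placements, so the counts are a description only. The neighbouring steps share the LMPP or the ALP libraries with the step described here, so their values are given side by side only. The step before called 5.06% of 11043 genes (2.36% higher and 2.7% lower), and the step after called 0.128% of 10905 (0.119% higher and 0.00917% lower).

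Of the genes called higher in ALPs 19 were tested at the step before, and 6 were called higher there: Dntt, Rag2, Cnn3, Arpp21, Cmah and Ctr9. Of the 27 genes called lower in ALPs, 10 were called lower and 5 higher at that step. Dntt went from 19.8 ± 5.17 CPM in HSCs to 1177 ± 403, 7018 ± 1871 and 5256 ± 785 CPM in LMPPs, ALPs and BLPs (SD, n = 5 each), with log2 fold changes of 5.94, 2.52 and -0.30 at the 3 steps (edgeR adjusted p = 4.16e-05, 0.0158 and 1). Rag2 had log2 fold changes of 5.55, 2.14 and 0.80 (edgeR adjusted p = 0.000756, 0.0412 and 1). Il7r did not pass at the step before, at 2.49 ± 0.975 CPM in HSCs and 3.10 ± 2.35 CPM in LMPPs (SD, n = 5 each; log2 fold change 0.20, edgeR adjusted p = 0.946). Of the 54 genes, Ly6d and Wfdc17 were the 2 called at the step after, where the log2 fold change of Ly6d was 6.55 (edgeR adjusted p = 5.22e-05). Bcl2 was among the 9 genes with their highest mean in ALPs, at 309 ± 182 CPM against 184 ± 88.2 CPM in BLPs, a difference that did not pass (edgeR adjusted p = 1).

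The genes that fell had their highest mean in HSCs or in LMPPs. Hlf had 517 ± 111 CPM in HSCs, 179 ± 63.5 in LMPPs and 12 ± 7.51 in ALPs (SD, n = 5 each), and Car2, Rab38, Cd63 and Ifitm1 likewise had their highest means in HSCs. The chemokine genes Ccl9 and Ccl3 and Wfdc17, a secreted protein of whey acidic type, were highest in LMPPs instead. Ccl9 had 5.93 ± 6.96, 296 ± 98.9, 22.6 ± 13.03 and 18.8 ± 12.8 CPM along the path, with log2 fold changes of 6.58, -3.87 and -0.22 at the 3 steps (edgeR adjusted p = 0.00477, 0.013 and 1). Wfdc17 had 22.1 ± 14.7, 1461 ± 1274, 219.8 ± 63.2 and 46.1 ± 20.4 CPM and was called at all 3 steps (edgeR adjusted p = 0.000333, 0.0372 and 0.0355). Its highest LMPP library was that of mouse10372, at 3609 CPM.

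**Figure D4:**
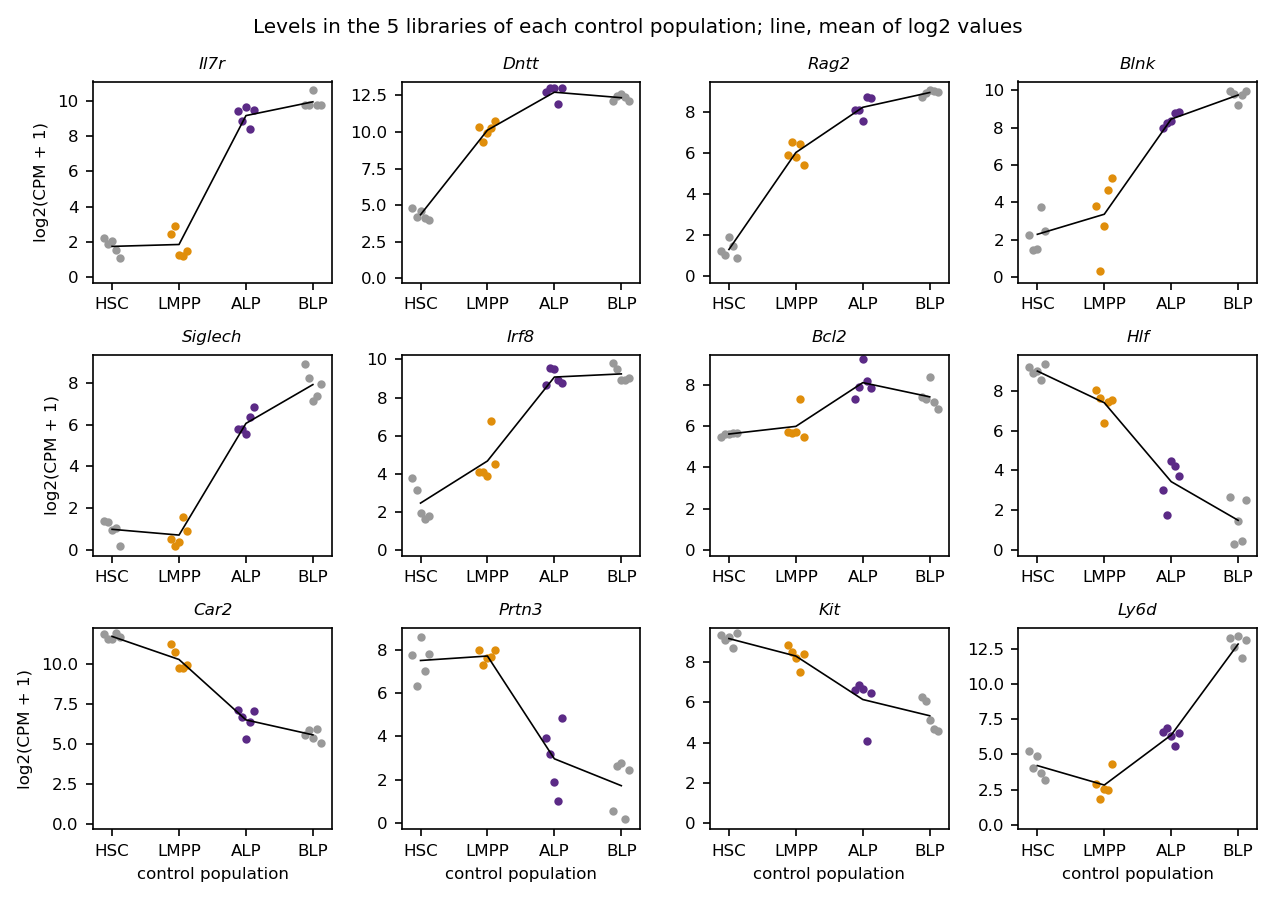
Each point is 1 of the 5 control libraries of a population at log2(CPM + 1), and the line joins the means of the log2 values from HSC to BLP. Il7r, Siglech and Blnk are low in HSCs and LMPPs and high in ALPs and BLPs, Dntt and Rag2 are already raised in LMPPs, and Hlf, Car2 and Kit fall along the path.

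The same step in the 5 Mbd3del mice called 154 genes, 84 higher and 70 lower, which is 1.39% of the 11082 tested (0.758% and 0.632%). These mice share no library with the control mice. Of the 54 genes called in control mice 53 were tested there, all 53 with the same sign, and 40 were called in the same direction, 22 higher and 18 lower. The shared 40 are 74.1% of the control calls and 26.0% of the Mbd3del calls. Over all 10524 genes tested in both, 55.3% had the same sign (Pearson's r of the log2 fold changes across genes 0.42, a description, since genes are not independent replicates). Conversely, of the 147 Mbd3del calls that were tested in control mice, 145 had the same sign there. Rag1, Ebf1, Cd247, Xrcc6, Angpt1, Lmo2 and Nfe2, which did not pass in control mice, passed in Mbd3del mice with log2 fold changes of 6.26, 6.78, 6.50, 2.04, -2.26, -1.72 and -2.82, against 5.79, 7.51, 5.25, 1.36, -2.22, -1.80 and -1.54 in control mice. They were chosen for mention after their values were seen.

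The difference of the step between genotypes was tested as an interaction. Of 12237 genes edgeR called 0 (0.0%), 372 had an unadjusted p under 0.05 where 612 would be expected with no change, DESeq2 called 35 and limma voom 0. The median of the interaction over all genes was -0.15 (Mbd3del minus control, log2). Il7r had a log2 fold change of 8.04 in Mbd3del and 7.71 in control mice (difference 0.40 ± 0.64 SE). Of the 54 genes 2 of the higher and 5 of the lower had an unadjusted interaction p under 0.05. These genes were chosen by their change in the same control libraries, and that choice favours a smaller change in Mbd3del mice. The change was smaller in size there for 17 of the 26 higher and 21 of the 27 lower genes tested. The count is therefore no measure of an excess over all genes. Mgst1 had the lowest p of them, with 120 ± 75.1 CPM in Mbd3del LMPPs and 56.4 ± 40.9 CPM in Mbd3del ALPs against 142 ± 95.4 and 9.42 ± 4.83 CPM in control mice (SD, n = 5 each), a difference of 3.05 ± 0.68 (SE; edgeR adjusted p = 0.972, DESeq2 adjusted p = 0.00465). Cd63 had log2 fold changes of -3.65 in control and -1.40 in Mbd3del mice (edgeR adjusted p of the difference = 0.972, DESeq2 adjusted p = 0.0347). Mgst1 and Cd63 were the 2 of the 54 genes that DESeq2 called for the difference, and Prtn3 (-5.01 and -2.60) and Ccl9 (-3.87 and -2.15) were called at the step in both genotypes without passing for the difference.

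**Figure D5:**
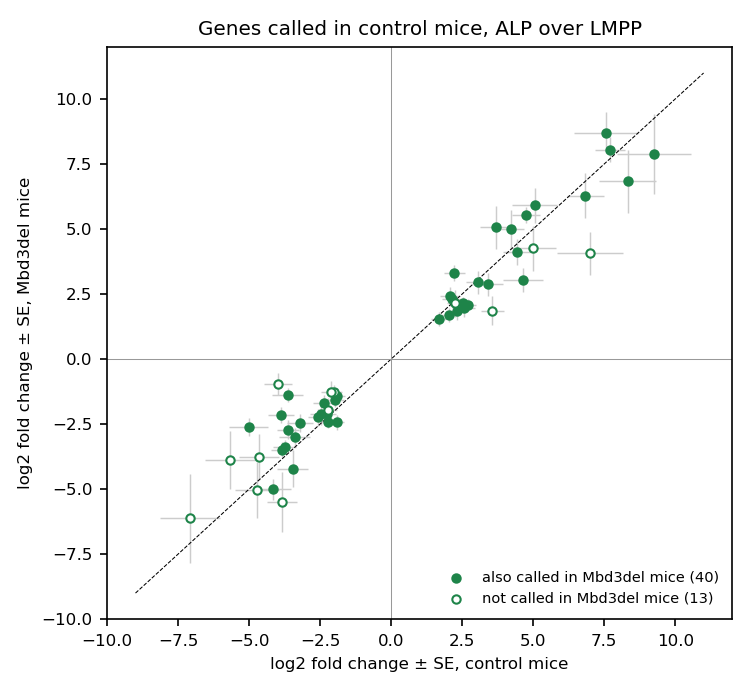
Each point is 1 of the 53 genes called in control mice and tested in Mbd3del mice, at its log2 fold change in control (horizontal) and Mbd3del mice (vertical), with SE as bars; the dashed line marks equal change. All 53 lie in the quadrants of equal sign, 40 of them (filled) also called in Mbd3del mice.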

How the data were processed

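Raw read counts per gene for 40 libraries were deposited by the authors. By the submitters' processing notes, HTSeq (0.6.1p1) produced them from STAR (2.5.2b) alignments to GRCm38; the sources used here give neither annotation release nor strand setting. The 79325 rows named repRegion (0.205% to 1.96% of a library's counts here) were left out of library sizes and tests. Of 49585 gene rows 49326 had a symbol. Symbols came from a reference list of gene names, or from GENCODE M21 where that list had none. Coordinates came from GENCODE M21. A count of 3 equals 0.330 to 0.892 CPM per library; intervals cover counting error only.

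Genes passing the default expression filter (minimum count 10, total 15) were tested with edgeR 4.0.16 (R 4.3.3; quasi-likelihood F test, robust, legacy estimator, TMM scaling, mouse as a block, Benjamini-Hochberg over all genes tested, 0.05), each comparison on its own libraries. The scripts were tested on simulated data. Libraries of 1 mouse come from the same animal by the labels, so they were paired. Deviations of the paired libraries correlated at -0.02 to 0.06. In mouse10357, mouse10372 and mouse10380 the LMPP library correlated more with the ALP library of another mouse (0.170, 0.121 and 0.072). In mouse10358 and mouse10381 it correlated most with that of the same mouse. The pairing thus rests on the labels. Alternatives included DESeq2 1.42.0 and limma 3.58.1 (voom). SE is the log2 fold change divided by the root of F. CPM is scaled by library totals alone. Named genes are the gate genes, called list members, and per direction the 12 largest called changes with at least 5 CPM in the higher group, equal sign in 5 mice and no overlap, without unnamed models. Genes, the 25 lists and tests were chosen with earlier results of these data known. Promoter sequences come from RefSeq (GRCm38.p6). A few list members, 1 of them a called gene, are not reported here.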

Additional observations from a re-analysis of the deposited data

Results flagged for a closer look

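The levels of the called and gating genes in each population of 5 control libraries, their differences per mouse and the library measures were screened for a library far from the other 4 (Dixon's test at the 95% level, genes on the log2(CPM + 1) scale). Of 181 sets 12 were beyond the critical value, and chance flags about 1 in 20. The library of mouse10380 stood apart in 5 of them. In LMPPs it was the highest for Irf8 (108 CPM, the others 13.7 to 21.7), Cd28 (7.03 CPM, the others 0 to 0.237) and Bcl2 (157 CPM, the others 44.1 to 52.3). In ALPs it was the lowest for Dntt (3832 CPM, the others 6826 to 8225) and Kit (16.2 CPM, the others 87.9 to 115). The library of mouse10372 was the highest among LMPPs for Mgst1 (311 CPM, the others 84.1 to 116) and Itga4 (132 CPM, the others 49.1 to 65.1), and the lowest among ALPs for Lgmn (43.1 CPM, the others 120.2 to 164). The LMPP library of mouse10357 was the highest for Ebi3 (174 CPM, the others 76.2 to 96.3), Adgrl4 (1603 CPM, the others 1136 to 1246) and Mycl, where its 0.143 CPM was a single count and the others had 0. The difference of Itga4 between the populations was 2.07 in mouse10357 and 1.58 to 1.70 in the others on that scale.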

How the results depend on the processing

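The calls of the LMPP to ALP step in control mice kept their sign under the 15 alternatives wherever they were tested (Tmtc1 was not tested at a minimum count of 50), while their number moved. Against 54 in the report, 102 genes were called with no replicate block (mouse not paired), 111 with no low-count filter, 504 by DESeq2, 107 by limma voom, 134 with the newer edgeR estimator and 179 in a joint fit of all control libraries, and 1 to 43 with 1 mouse left out (2 without mouse10372 and mouse10381 together). Of the 54 genes, 53 passed in the first of these (not Itga4, edgeR adjusted p = 0.068). All 54 passed by DESeq2, voom and the newer estimator. The other settings tried, RLE scaling, no scaling and a minimum count of 50, called 53, 49 and 59 genes in all. These calls held 53, 44 and 53 of the 54 genes. Without scaling the median over all genes was 0.12 in place of 0.05. With 1 mouse left out 1 to 32 of the 54 were still called, and Il7r was the 1 gene called in every such fit. For the step in Mbd3del mice (154), 242 were called with no replicate block, 240 with no filter, 789 by DESeq2, 306 with the newer estimator and 38 to 232 with 1 mouse left out. The difference between genotypes gave 1 call with no filter and 35 by DESeq2, in place of 0. For HSC to LMPP (559), DESeq2 called 1986, voom 975, the newer estimator 1302, and 211 to 564 were called with 1 mouse left out (182 without both). For ALP to BLP (14), 29 were called with no replicate block, 50 with no filter, 159 by DESeq2, 28 by voom, 41 with the newer estimator, 4 to 15 with 1 mouse left out and 4 without both. The cause of these movements was not tested. The ALP library of mouse10372 was the shallowest, and genes near 1 CPM rest on a few counts per library.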

Other observations

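Of the called genes, 9 pairs lay within 500 kb of each other, and 8 of them moved in the same direction; the pairs were counted after the values were seen, with no test. Ccl9, Ccl3 and Wfdc17 lie together on chromosome 11, with Ccl9 and Ccl3 69.2 kb apart and Ccl3 and Wfdc17 54.6 kb apart, and all 3 fell. Hlf and Stxbp4, 85.6 kb apart on the same chromosome, fell by 4.15 and 3.21 on the log2 scale. Blnk and Dntt on chromosome 19, 34.7 kb apart with no protein-coding gene between them, both rose (5.05 and 2.52 on the log2 scale), as did Bfsp2 and Tmem108 on chromosome 9, 2.53 kb apart. Kit and the gene model Gm19590 on chromosome 5, 176 kb apart, both fell. The pair with opposite directions was Rag2, which rose, and B230118H07Rik, which overlaps it and fell (2.14 and -3.40); they were counted separately, and overlap of their exons was not examined.

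Of 20 antigen receptor accessory and surface genes 19 were tested, and edgeR called 0 of them, with 6 at an unadjusted p under 0.05, 2 called by DESeq2 and 1 by limma voom. Ly86 and Ptprcap had every ALP library above every LMPP library, and Tnfrsf18 had the reverse. Markers of other cell types were summed per library; the Lin-, Sca-1+, c-Kit+ and Flt3hi gates are meant to remove most such mature cells. NK and innate lymphoid markers summed to 393 to 1019 CPM in LMPPs and 424 to 900 CPM in ALPs, with Eomes, Tbx21 and Gzmb at 0 counts in all 10 libraries. Macrophage markers summed to 79.6 to 101 CPM and 52.5 to 87.6 CPM, mast cell and basophil markers to 9.03 to 30.7 CPM and 0.110 to 140 CPM, and stromal and endothelial markers to 103 to 314 CPM and 224 to 380.0 CPM. Their part in the results was not tested.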
